A study of Mus musculus with 8 samples.

Results

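The 10 genes described here encode proteins of the germ granule and the piRNA pathway: the PIWI proteins Piwil2 and Piwil4, the RNA helicases Ddx4, Mov10l1 and Tdrd9, the tudor domain proteins Tdrd1, Tdrd6 and Tdrd7, and Mael and Tex19.1. They were taken by name. All 13 probes that carried these names, of 41174 gene probes on the array, were taken (the Tex19.1 probe is named Tex19 in the files). Of these, 11 probes passed the filter on dim probes, and all 10 genes were among the 19032 genes tested. RNA was measured on 8 one-colour Agilent arrays, 2 in each of 4 groups. The cells were mouse primordial germ cells, the embryonic precursors of sperm and eggs, made in culture by 12 days of differentiation from embryonic stem cells. These stem cells were derived from the V6.5 line (strain C57BL/6 129SV mixed) and carried Dazl-GFP-V5, a fusion of the germ cell RNA-binding protein DAZL with GFP and a V5 tag. All groups, the controls included, came from these tagged cells. The groups were total RNA (input), RNA from an immunoprecipitation (IP) with normal mouse IgG (mock IP), and RNA from IPs with an antibody against V5 (V5 IP) or against GFP (GFP IP). The IPs were made from native lysates without ultraviolet crosslinking. The labels do not say whether the 2 arrays of a group came from separate cultures, so p-values cover only the array-to-array spread seen here, which can be technical.

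Germ granules, also called nuage, are membraneless bodies of RNA and protein in the cytoplasm of germ cells. PIWI proteins carry piRNAs, small RNAs that guide the silencing of transposons, and helicases and tudor domain proteins help to make piRNAs and to hold the PIWI proteins in the granule. In the mouse this pathway is known for its role in male germ cells, where its loss derepresses transposons and arrests spermatogenesis. The arrays measured the mRNAs of these proteins, not the proteins or piRNAs.

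The genes were looked up in a RefSeq promoter table of build GRCm38.p6, to see what they share apart from their names. The table matched 8 of the 10 genes, with 13 windows of 250 bases upstream of an annotated start; Piwil2 and Tdrd6 were not matched. The 6 letters CACGTG, an E-box that reads alike on both strands, occurred in 6 of the 13 windows (46.2%), which belong to 5 genes: Ddx4, Mael, Mov10l1, Tdrd1 and Tdrd9. Both Tdrd1 windows with a match overlap. Of all 32851 windows in the table, 6.02% held CACGTG. Among windows with at least 10 CpG dinucleotides, 5 of 9 windows of these genes (55.6%) and 9.37% of 12417 windows in all held it. The other motif searched on both strands, GCGGGAAA, occurred in 0 windows of these genes and in 0.895% of all windows. The median CpG count was 15 in these windows and 6 in all. The promoters of Ddx4, at chr13:112652311-112652560 (minus strand), Mael, at chr1:166238745-166238994 (minus strand), Mov10l1, at chr15:88982744-88982993 (plus strand), and Tdrd9, at chr12:111971309-111971558 (plus strand), are shown as those with the shared letters. That of Tex19.1, at chr11:121145893-121146142 (plus strand), is shown because Tex19.1 had the largest difference of the 10 genes on the arrays and its window does not hold CACGTG. Sequences run 5′ to 3′ on the gene's strand and end at the base before the start. Capitals mark CACGTG. A match describes the letters only, and the array data do not bear on factor binding.
Ddx4: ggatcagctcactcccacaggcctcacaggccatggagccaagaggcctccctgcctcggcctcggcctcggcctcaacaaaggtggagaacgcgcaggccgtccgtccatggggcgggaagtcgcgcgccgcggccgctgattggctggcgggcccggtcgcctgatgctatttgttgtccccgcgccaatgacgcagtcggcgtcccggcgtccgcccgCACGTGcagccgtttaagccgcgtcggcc
Mael: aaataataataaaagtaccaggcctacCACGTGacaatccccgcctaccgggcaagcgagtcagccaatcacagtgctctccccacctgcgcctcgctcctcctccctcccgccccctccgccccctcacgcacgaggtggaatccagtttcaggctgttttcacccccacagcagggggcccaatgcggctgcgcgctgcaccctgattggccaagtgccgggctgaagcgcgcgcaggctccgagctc
Mov10l1: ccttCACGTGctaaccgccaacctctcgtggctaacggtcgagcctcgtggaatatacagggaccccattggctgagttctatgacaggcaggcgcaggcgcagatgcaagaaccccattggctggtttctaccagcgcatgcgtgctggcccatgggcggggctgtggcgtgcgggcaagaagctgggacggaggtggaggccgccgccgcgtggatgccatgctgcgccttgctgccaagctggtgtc
Tdrd9: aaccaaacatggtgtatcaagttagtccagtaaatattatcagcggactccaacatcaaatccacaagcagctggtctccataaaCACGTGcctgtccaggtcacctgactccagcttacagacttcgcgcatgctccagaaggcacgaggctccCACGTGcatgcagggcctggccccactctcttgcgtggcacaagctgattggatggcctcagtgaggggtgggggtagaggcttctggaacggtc
Tex19.1: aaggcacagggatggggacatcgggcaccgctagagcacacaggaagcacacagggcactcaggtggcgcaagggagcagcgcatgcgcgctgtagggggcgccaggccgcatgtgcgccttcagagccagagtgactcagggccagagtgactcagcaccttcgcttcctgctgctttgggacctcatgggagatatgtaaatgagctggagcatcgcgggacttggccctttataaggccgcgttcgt

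Values are log2 processed intensities relative to the array's 75th percentile over gene probes, called log2 level below. A fold is thus a share of an array's signal, set against all its other RNA, and not an amount recovered. In these bulk samples fewer cells with a transcript and less of it per cell cannot be told apart. That percentile ranged from 352 to 767 on the mock arrays, from 641 to 1130 on the V5 and GFP arrays and from 974 to 1090 on the input arrays, and 61.3% to 70.5% of probes were well above background. Of the listed germ cell markers, 9 of 10 were tested and all 9 were well above background on both input arrays; Prdm14 was not tested. Markers of other lineages were detected there too: 7 of 7 for pluripotent cells, 6 of 7 for mesoderm and heart, 5 of 5 for neural cells, 3 of 5 for endoderm, 5 of 6 for blood and endothelium, 6 of 6 for fibroblasts and 3 of 3 for gonad somatic cells. The markers of a cell type were also summed on the linear scale and the sum put on the log2 scale, so that the brightest genes count most. This sum was 6.67 to 6.76 for the pluripotency markers on the input arrays, 6.38 to 6.42 on the mock arrays and 7.45 to 8.13 on the V5 and GFP arrays. In the V5 IP over the mock IP 3 of these 7 were called higher (Nanog, Sox2 and Zfp42) and 0 lower. Pou5f1 and Esrrb lay at -0.70 and -0.70 there, which did not pass. The sum of the germ cell markers, which include Ddx4 and Dazl, was 5.77 to 5.99 on the mock arrays and 6.67 to 7.30 on the V5 and GFP arrays, with 4 called higher and 2 lower (Nanos3 and Ifitm3) in the V5 IP. That of the neural markers was 2.84 to 3.08 on the mock arrays and 3.25 to 4.36 on the V5 and GFP arrays, although 0 of the 5 were called higher in the V5 IP and 1 (Nes) lower. That of the fibroblast markers was 4.38 to 4.85 and 3.31 to 3.74, with 2 of 6 called lower. On the mock arrays and then the V5 and GFP arrays, blood and endothelium gave 1.38 to 1.66 and 1.64 to 2.50 (1 called higher and 1 lower). Mesoderm and heart gave 2.24 to 2.90 and 1.64 to 2.26 (0 higher and 1 lower). Endoderm gave -0.60 to 0.19 and -0.90 to -0.46, and gonad somatic cells -0.74 to -0.33 and -0.65 to -0.22 (0 called in either in the V5 IP). All these counts of calls are those of the V5 IP. In the GFP IP over the mock IP, 3 more markers were called lower by limma. They were T of mesoderm (-0.84, adjusted p = 0.0216), Hbb-bh1 of blood (-1.22, adjusted p = 0.0174) and Amh of gonad somatic cells (-0.95, adjusted p = 0.0332). These were well above background on 5, 5 and 6 of the 8 arrays. The part of these shifts in the results below was not tested. Dazl, the tagged gene, lay 2.63 ± 0.39 (SE) above the mock IP in the V5 IP and 2.71 ± 0.39 above it in the GFP IP. Against input Dazl lay at 1.30 ± 0.39 in the V5 IP, at 1.39 ± 0.39 in the GFP IP and at -1.33 ± 0.39 in the mock IP. By limma the last of these had an adjusted p of 0.0641, and of 0.0123 with the slide block described below.

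By limma, with adjusted p-values over all 19032 genes, 4 of the 10 genes rose in the V5 IP over the mock IP (Ddx4, Piwil2, Piwil4 and Tex19.1) and 0 fell. Over all genes, 14.6% were called higher and 21.4% lower. In the GFP IP over the mock IP, which uses the same mock arrays, 4 of the 10 rose (Ddx4, Piwil2, Piwil4 and Tex19.1) and 0 fell, against 16.3% and 26.5% of all genes. At an unadjusted p under 0.05 there were 5 of the 10 genes in the V5 IP, with 9551 of all 19032 genes, and 6 in the GFP IP, with 10187 of all genes, which is close to the share over all genes. The median log2 difference of the 10 genes was 0.57 in the V5 IP, with -0.44 for all genes, and 0.69 in the GFP IP, with -0.44 for all genes. The first replicates shared slide 1 and the second replicates slide 2. With slide added to the fit as a block, 5 of the 10 rose and 2 fell in each of these comparisons, with 19.4% higher and 38.4% lower among all genes in the V5 IP and 20.9% and 40.2% in the GFP IP. Both counts were 0 with normexp background correction, so that all these calls ended. With no filter on dim probes the V5 calls of Piwil2, Piwil4 and Tex19.1 ended too. With only the groups compared those of Piwil2, Piwil4 and Ddx4 ended. The V5 count was also 0 without mock 1 or without V5 1, 1 without input 1, without input 2, with no filter on dim probes or with only the groups compared, and 2 (Ddx4 higher and Mov10l1 lower) without mock 2. The GFP count was 1 without mock 1 and 0 without GFP 1.

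**Figure D1:**
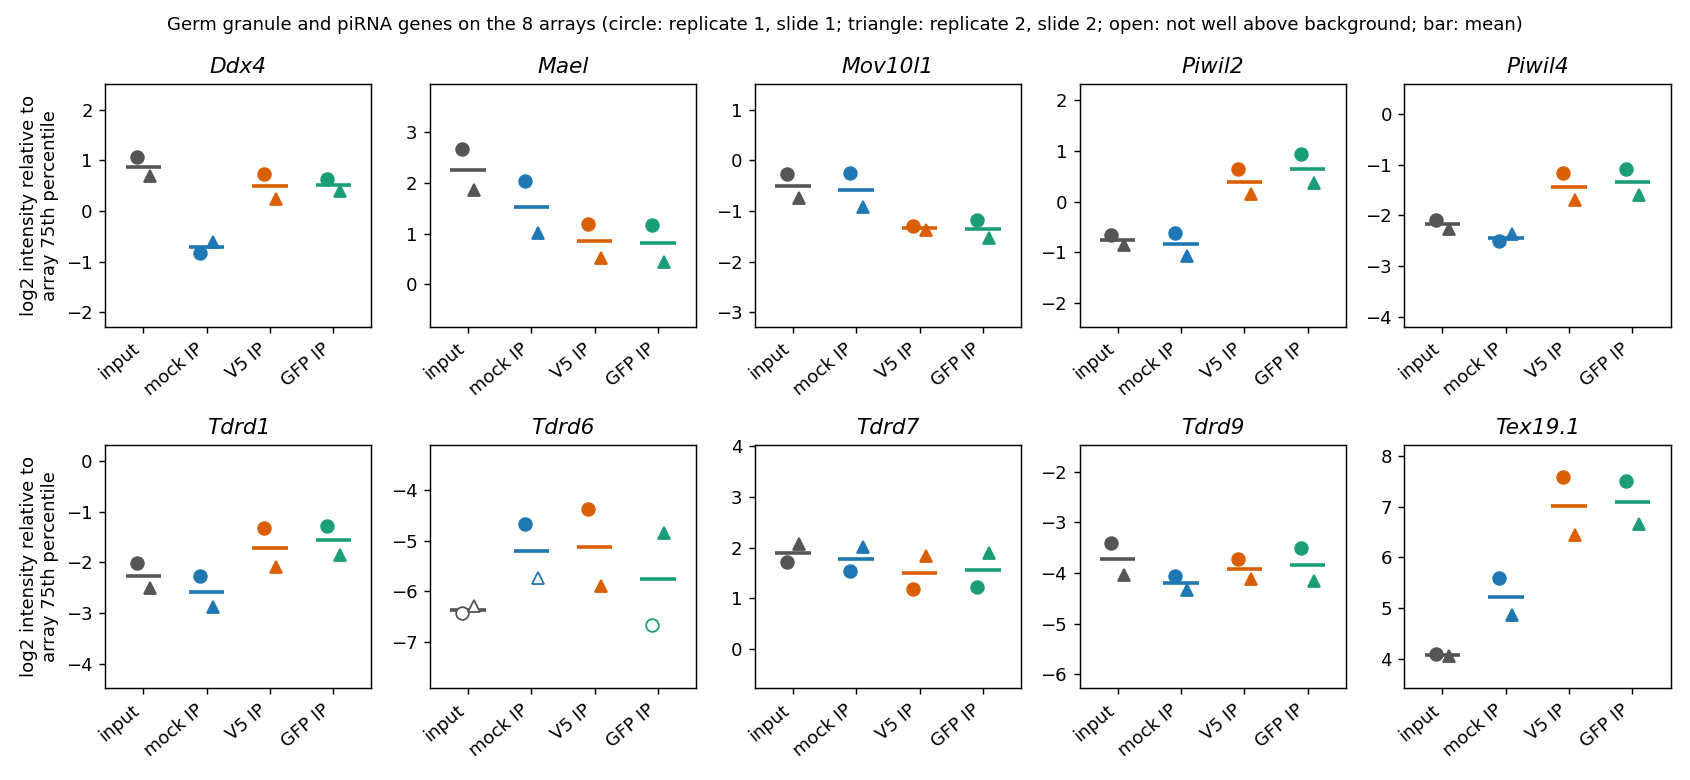
Log2 level of each of the 10 genes (y axis, log2 intensity relative to the array's 75th percentile, a scale of its own for each gene) on the 8 arrays by group. Circles are replicate 1, triangles replicate 2, bars the group mean, and open symbols arrays on which the probe was not well above background. Tex19.1, Piwil2 and Piwil4 lay higher on all V5 and GFP arrays than on any input or mock array, and Tdrd6 had open symbols in 3 groups.

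**Figure D2:**
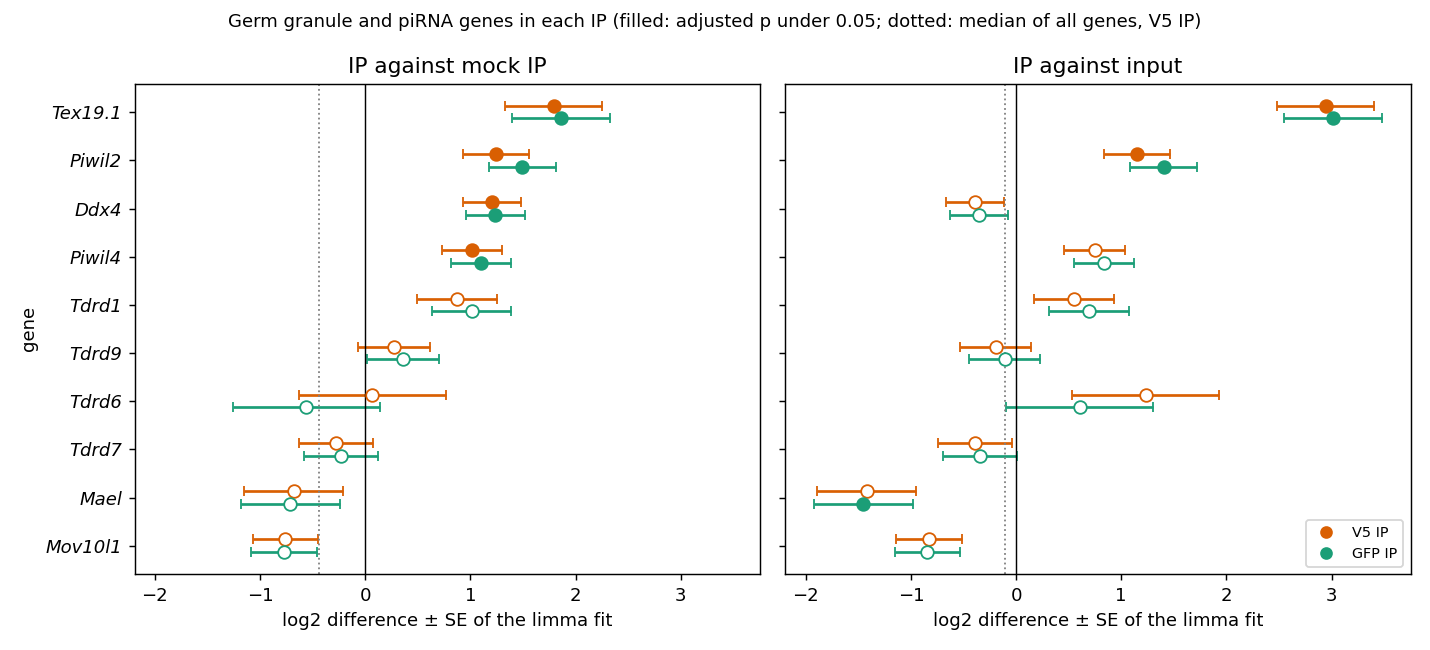
Log2 difference of each gene (x axis, with the SE of the limma fit) in the V5 IP and the GFP IP against the mock IP (left) and against input (right). Filled points passed an adjusted p of 0.05, and the dotted lines mark the median of all genes in the V5 IP, -0.44 against the mock IP and -0.11 against input. Tex19.1 lay 1.79 to 1.86 above the mock IP and 2.94 to 3.02 above input, and Ddx4 lay above the mock IP but not above input.

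Piwil2 encodes MILI, a PIWI protein that binds piRNAs from fetal germ cells onward. Its log2 level was -0.65 and -0.85 on input arrays 1 and 2, -0.61 and -1.08 on the mock arrays, 0.65 and 0.15 on the V5 arrays, and 0.94 and 0.36 on the GFP arrays. Every V5 and GFP array lay above every input and mock array. Piwil2 rose 2.37-fold in the V5 IP over the mock IP (a log2 difference of 1.24 with SE 0.32, adjusted p = 0.0260) and 2.82-fold in the GFP IP over the mock IP (1.50 ± 0.32, adjusted p = 0.0127). It also rose 2.22-fold in the V5 IP over input (1.15 ± 0.32, adjusted p = 0.0328) and 2.64-fold in the GFP IP over input (1.40 ± 0.32, adjusted p = 0.0141). Both sets of comparisons were positive within each slide, by 1.26 and 1.22 on slides 1 and 2 for the V5 IP over the mock IP and by 1.55 and 1.44 for the GFP IP. The mock IP differed from input by -0.093 ± 0.32, which did not pass. The V5 call over the mock IP ended without mock 1, mock 2, input 1, input 2 or V5 1 (adjusted p of up to 0.126 over all 16 alternatives), and the GFP call ended without GFP 1 (up to 0.0803). The V5 call over input ended without input 1, input 2 or V5 1 (up to 0.182), and the GFP call over input without input 1, input 2 or GFP 1 (up to 0.0984).

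Piwil4 encodes MIWI2, the PIWI protein that enters the nucleus of fetal male germ cells and directs DNA methylation of transposons. The Piwil4 probe gave log2 levels of -2.08 and -2.27 on the input arrays, -2.51 and -2.37 on the mock arrays, -1.17 and -1.69 on the V5 arrays, and -1.09 and -1.59 on the GFP arrays. The V5 and GFP arrays were above all input and mock arrays. Piwil4 rose 2.02-fold in the V5 IP over the mock IP (1.01 ± 0.29, adjusted p = 0.0329) and 2.15-fold in the GFP IP over the mock IP (1.10 ± 0.29, adjusted p = 0.0210). Within slide 1 these differences were 1.34 and 1.42, and within slide 2 they were 0.68 and 0.78. Over input the differences were 0.75 ± 0.29 in the V5 IP (adjusted p = 0.0901, 0.0325 with the slide block) and 0.84 ± 0.29 in the GFP IP (adjusted p = 0.0584, 0.0190 with the slide block). The V5 call over the mock IP ended without mock 1, mock 2, input 1, input 2 or V5 1 (adjusted p of up to 0.384 over the alternatives), and the GFP call without mock 1 or GFP 1 (up to 0.207). A second Piwil4 probe was not well above background on any array and has no fold.

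Ddx4 encodes the DEAD-box RNA helicase known as mouse vasa homolog, a defining component of germ granules. Ddx4 had log2 levels of 1.06 and 0.69 on the input arrays, -0.83 and -0.60 on the mock arrays, 0.73 and 0.24 on the V5 arrays, and 0.64 and 0.40 on the GFP arrays. The mock arrays were the lowest, below all others, and the V5 arrays overlapped with input. Ddx4 rose 2.30-fold in the V5 IP over the mock IP (1.20 ± 0.28, adjusted p = 0.0213) and 2.36-fold in the GFP IP over the mock IP (1.24 ± 0.28, adjusted p = 0.0141). Against input Ddx4 lay at -0.39 ± 0.28 in the V5 IP (adjusted p = 0.328) and at -0.35 ± 0.28 in the GFP IP (adjusted p = 0.364), and neither passed. In the mock IP it was 3.01-fold lower than in input (-1.59 ± 0.28, adjusted p = 0.0253), the 1 gene of the 10 called in that comparison, where 6.63% of all genes were called higher and 4.03% lower. The call in the mock IP against input ended without input 1, input 2 or mock 1 (adjusted p of up to 0.198). The V5 call over the mock IP ended without mock 1 or V5 1 (up to 0.112) and the GFP call without mock 1 or GFP 1 (up to 0.0851).

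Mov10l1 encodes the RNA helicase that binds piRNA precursor transcripts. Mov10l1 was at log2 levels of -0.27 and -0.74 on the input arrays, -0.24 and -0.91 on the mock arrays, -1.30 and -1.37 on the V5 arrays, and -1.17 and -1.53 on the GFP arrays. All V5 and GFP arrays were below all input and mock arrays. The difference from the mock IP was -0.76 ± 0.31 in the V5 IP (adjusted p = 0.0887) and -0.77 ± 0.31 in the GFP IP (adjusted p = 0.0784). With the slide block both passed, with adjusted p = 0.0205 and 0.0171. Against input the differences were -0.83 ± 0.31 in the V5 IP (adjusted p = 0.0850, 0.0173 with the slide block) and -0.84 ± 0.31 in the GFP IP (adjusted p = 0.0736, 0.0146 with the slide block). A second Mov10l1 probe gave another pattern. Its difference from the mock IP was 0.31 ± 0.27 in the V5 IP (adjusted p = 0.395 in the fit of all 28104 kept probes), opposite in sign to the first probe, and -0.011 ± 0.27 in the GFP IP (adjusted p = 0.976). Against input the second probe fell by 0.89 in the GFP IP (adjusted p = 0.0430; 15.6% of kept probes were called higher and 16.6% lower), and lay at -0.57 ± 0.27 in the V5 IP (adjusted p = 0.159, 0.0499 with the slide block) and at -0.88 ± 0.27 in the mock IP (adjusted p = 0.0761, 0.0165 with the block).

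Tdrd9 encodes a protein with both a helicase and a tudor domain, which acts with MIWI2. Tdrd9 was measured at log2 levels of -3.41 and -4.05 on the input arrays, -4.05 and -4.34 on the mock arrays, -3.72 and -4.12 on the V5 arrays, and -3.51 and -4.17 on the GFP arrays. The slide 1 array was above the slide 2 array in every group, and the ranges of the IPs overlapped with those of both controls. Tdrd9 passed in no comparison. Its difference from the mock IP was 0.27 ± 0.34 in the V5 IP (adjusted p = 0.535) and 0.36 ± 0.34 in the GFP IP (adjusted p = 0.409). Against input it lay at -0.19 ± 0.34 in the V5 IP and at -0.11 ± 0.34 in the GFP IP.

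Tdrd1 encodes the tudor domain protein that binds MILI in the granules beside mitochondria. For Tdrd1 the log2 level was -2.02 and -2.50 on the input arrays, -2.27 and -2.88 on the mock arrays, -1.32 and -2.10 on the V5 arrays, and -1.29 and -1.85 on the GFP arrays. On slide 1 it was higher than on slide 2 in all 4 groups, and both IPs were above the mock IP on each slide. The difference from the mock IP was 0.87 ± 0.38 in the V5 IP (adjusted p = 0.104) and 1.01 ± 0.38 in the GFP IP (adjusted p = 0.0638). With the slide block Tdrd1 passed in both, with adjusted p = 0.00959 and 0.00468. Within slides it lay 0.95 and 0.78 above the mock IP in the V5 IP and 0.99 and 1.03 above it in the GFP IP. Against input the differences were 0.55 ± 0.38 in the V5 IP (adjusted p = 0.317, 0.0527 with the slide block) and 0.69 ± 0.38 in the GFP IP (adjusted p = 0.199, 0.0210 with the slide block). A second Tdrd1 probe was not well above background on any array.

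Tdrd6 encodes a large tudor domain protein of the chromatoid body, the germ granule of spermatids. Its probe was well above background on 0 of 2 input arrays, 1 of 2 mock arrays, 2 of 2 V5 arrays and 1 of 2 GFP arrays. The log2 level of Tdrd6 was -6.43 and -6.29 on the input arrays, -4.66 and -5.74 on the mock arrays, -4.36 and -5.89 on the V5 arrays, and -6.66 and -4.86 on the GFP arrays. The GFP arrays lay far apart (SD 1.28, n = 2), and the groups overlapped, except that both input arrays were below the V5 and mock arrays. Against input, whose value is only a bound, Tdrd6 was at least 2.17-fold higher in the V5 IP, which did not pass (adjusted p = 0.228) and which lay at -0.66 on the log2 scale with normexp. The V5 IP alone brought the Tdrd6 probe past the filter, so this fold is no support for a rise. With 1 of 2 arrays not well above background in the mock IP and in the GFP IP, no fold is given for these groups, and Tdrd6 passed in none of their comparisons.

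Tdrd7 encodes a tudor domain protein of the chromatoid body that is also known from the lens of the eye. Tdrd7 had log2 levels of 1.73 and 2.07 on the input arrays, 1.55 and 2.02 on the mock arrays, 1.18 and 1.83 on the V5 arrays, and 1.23 and 1.89 on the GFP arrays. The slide 2 array was the higher one in every group, the reverse of Tdrd1 and Tdrd9, and all 4 groups overlapped. Tdrd7 passed in no comparison. Its difference was -0.28 ± 0.35 in the V5 IP against the mock IP (adjusted p = 0.545), -0.23 ± 0.35 in the GFP IP against the mock IP (adjusted p = 0.619), -0.39 ± 0.35 in the V5 IP against input and -0.34 ± 0.35 in the GFP IP against input.

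Mael encodes Maelstrom, a nuage protein needed for transposon silencing in male germ cells. Mael was measured at log2 levels of 2.67 and 1.85 on the input arrays, 2.03 and 1.01 on the mock arrays, 1.18 and 0.51 on the V5 arrays, and 1.18 and 0.44 on the GFP arrays. Slide 1 gave the higher value in all 4 groups, and on each slide the order was input, then the mock IP, then both IPs. Against input, Mael fell by 1.45 in the GFP IP, 2.74-fold lower (SE 0.47, adjusted p = 0.0491), and lay at -1.42 ± 0.47 in the V5 IP (adjusted p = 0.0591). With the slide block both passed, with adjusted p = 0.000992 and 0.00131. The GFP call held in 7 of 16 alternatives and ended without input 1, input 2, GFP 1 or GFP 2 (adjusted p of up to 0.258), and with the median of the tested genes as the centre or the authors' deposited table. Against the mock IP the difference was -0.68 ± 0.47 in the V5 IP (adjusted p = 0.272, 0.0221 with the slide block) and -0.71 ± 0.47 in the GFP IP (adjusted p = 0.246, 0.0165 with the slide block). In the mock IP against input it was -0.74 ± 0.47 (adjusted p = 0.299, 0.0261 with the slide block).

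Tex19.1 encodes a protein of germ cells and pluripotent cells that restrains retrotransposons. The Tex19.1 probe gave log2 levels of 4.09 and 4.05 on the input arrays, 5.59 and 4.86 on the mock arrays, 7.59 and 6.43 on the V5 arrays, and 7.51 and 6.66 on the GFP arrays. The groups lay in the order input, the mock IP and then both IPs, with no overlap between input, the mock IP and the IPs. Tex19.1 rose 3.46-fold in the V5 IP over the mock IP (1.79 ± 0.46, adjusted p = 0.0270) and 3.64-fold in the GFP IP over the mock IP (1.86 ± 0.46, adjusted p = 0.0188). It rose 7.69-fold in the V5 IP over input (2.94 ± 0.46, adjusted p = 0.00497) and 8.09-fold in the GFP IP over input (3.02 ± 0.46, adjusted p = 0.00391). These calls over input held in all 16 alternatives for each IP, with adjusted p of up to 0.0419 in the V5 IP and 0.0340 in the GFP IP. In the mock IP Tex19.1 lay 1.15 ± 0.46 above input, with an adjusted p of 0.131, and of 0.0182 with the slide block, where it passed. The V5 call over the mock IP ended without mock 1, mock 2, input 1, input 2 or V5 1 (adjusted p of up to 0.122) and the GFP call without mock 1, mock 2 or GFP 1 (up to 0.0975). Tex19.1 has a near copy, Tex19.2, and the sources used here do not say whether the probe also reads Tex19.2. The Tex19.2 probe gave similar differences. By limma it rose 7.16-fold in the V5 IP over input (adjusted p = 0.0161) and 8.01-fold in the GFP IP over input (adjusted p = 0.0112). Over the mock IP it lay at 1.75 ± 0.63 in the V5 IP (adjusted p = 0.0631, 0.00334 with the slide block). In the GFP IP it lay at 1.91 ± 0.63 over the mock IP (adjusted p = 0.0436). Whether these probes read separate transcripts was not tested.

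Against input, 2 of the 10 genes rose in the V5 IP (Piwil2 and Tex19.1) and 0 fell, with 14.1% of all genes called higher and 13.7% lower. In the GFP IP, which shares the input arrays, 2 rose (Piwil2 and Tex19.1) and 1 fell (Mael), with 16% and 16.8% of all genes. At an unadjusted p under 0.05 there were 5 of the 10 genes in each IP, and 7787 (V5) and 8425 (GFP) of all 19032 genes. With the slide block 3 rose and 2 fell in the V5 IP (20.4% and 24.2% of all genes) and 4 rose and 2 fell in the GFP IP (22% and 26.8%). The added calls were Piwil4 higher and Mov10l1 lower in both, Mael lower in the V5 IP, and Tdrd1 higher in the GFP IP. In the mock IP against input the slide block gave 1 higher (Tex19.1) and 2 lower (Ddx4 and Mael), with 21.4% and 13.3% of all genes. Without input 1, without input 2, without the first array of the IP concerned, or with normexp, the count was 1 in each IP against input.

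Both antibodies bind the same fusion protein, and the V5 IP was also set against the GFP IP directly. By limma 0 of the 10 genes and 0 of 19032 genes passed (0% in each direction). At an unadjusted p under 0.05 there were 0 of the 10 genes and 187 of all. With the slide block 1 gene of all passed (0.00525% of genes, higher in the V5 IP), which was none of the 10 and which the files name only by a sequence accession. Leaving aside Tdrd6, which 1 GFP array did not measure above background, the differences ranged from -0.25 ± 0.32 for Piwil2 to 0.034 for Mael. For Tex19.1 the difference was -0.074 ± 0.46 and for Ddx4 -0.038 ± 0.28.

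**Figure D3:**
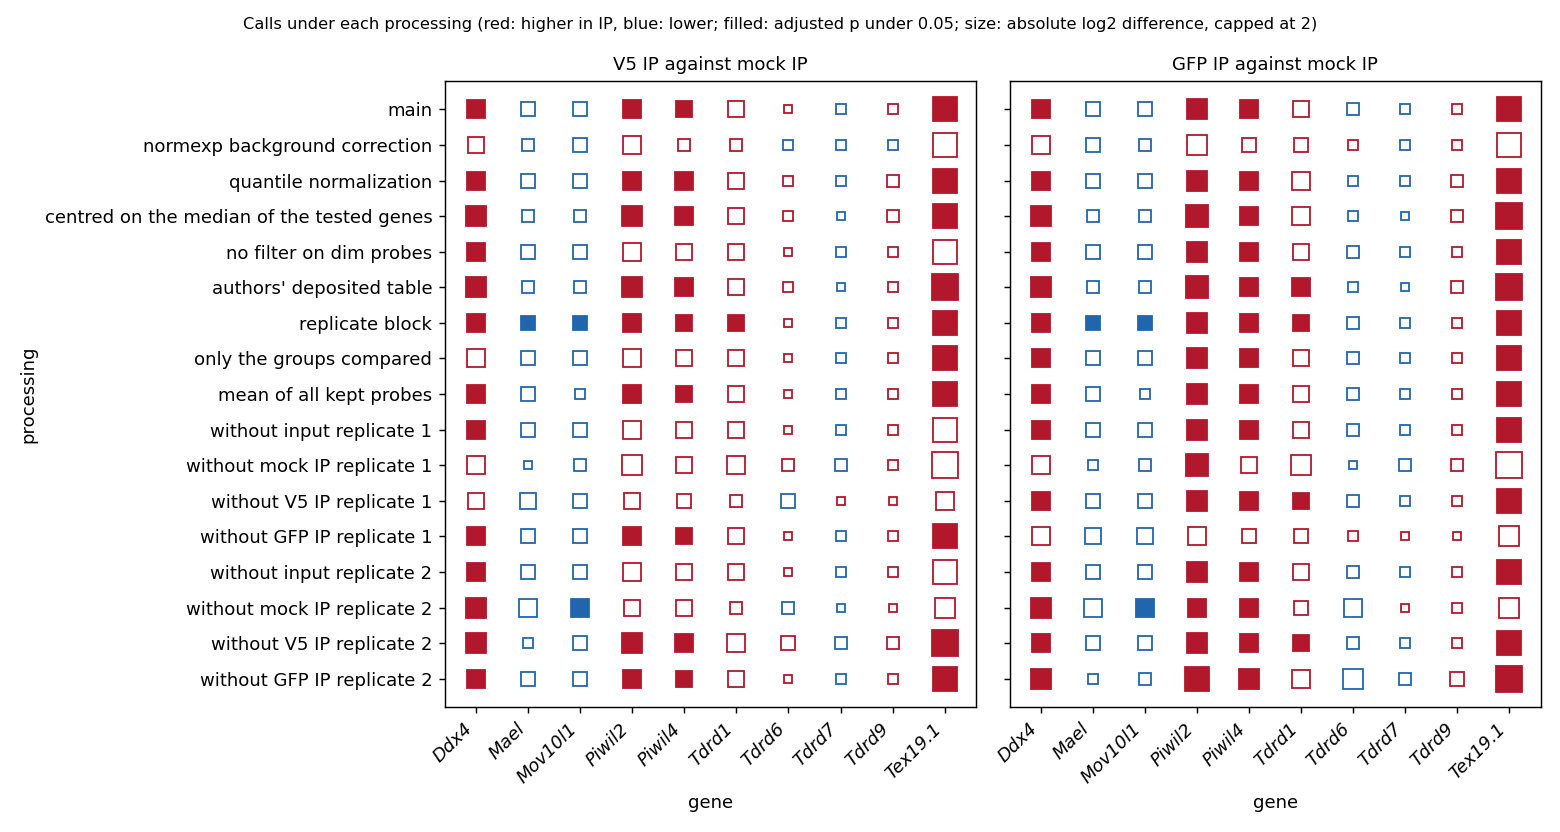
Calls of the 10 genes (x axis) in the V5 IP (left) and the GFP IP (right) against the mock IP under the main processing and 16 alternatives (y axis). Red squares are higher in the IP, blue lower, filled squares passed an adjusted p of 0.05, and the size shows the log2 difference, capped at 2. Normexp left 0 filled squares, and the replicate block filled those of Mael, Mov10l1 and Tdrd1.

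Other genes of the pathway were taken from a list of 32, of which 27 were tested. In the V5 IP over the mock IP 4 of the 27 rose and 5 fell, where 14.6% of all genes rose and 21.4% fell, and in the GFP IP over the mock IP 5 rose and 6 fell, with 16.3% and 26.5% of all genes. These shares are near those of all genes. With the slide block 10 rose and 7 fell in the V5 IP (19.4% and 38.4% of all genes) and 10 and 8 in the GFP IP (20.9% and 40.2%). The median difference was 0.026 in the V5 IP and 0.11 in the GFP IP. Asz1, an ankyrin repeat protein of the granules beside mitochondria, rose 8.68-fold in the V5 IP (3.12 ± 0.30, adjusted p = 0.00213) and 6.35-fold in the GFP IP (2.67 ± 0.30, adjusted p = 0.00203). Piwil1, the PIWI protein MIWI of later spermatogenesis, was not well above background on either mock array, so its level there is a bound. It was at least 5.33-fold higher in the V5 IP (adjusted p = 0.00352) and at least 5.58-fold higher in the GFP IP (adjusted p = 0.00284). Stk31, a kinase-like protein with a tudor domain, rose 3.22-fold and 3.45-fold. Over input, Asz1 lay at 1.10 ± 0.30 in the V5 IP (adjusted p = 0.0319) and at 0.65 ± 0.30 in the GFP IP (adjusted p = 0.136). Stk31 lay at 0.10 ± 0.25 (adjusted p = 0.799) and 0.20 ± 0.25 (adjusted p = 0.579) over input. In the mock IP against input, Asz1 lay at -2.02 (adjusted p = 0.0200) and Stk31 at -1.59 (adjusted p = 0.0214). Piwil1 rose 6.85-fold and 7.17-fold over input (adjusted p = 0.00274 and 0.00226). On the input arrays it was well above background but dim, at a mean log2 level of -5.91. The dimmest probes still well above background there lay at -6.58 and -6.06, so these folds are uncertain. The other calls of the list over the mock IP, named after their values were seen, were Tdrd5 higher and Mov10 and Snd1 lower in both IPs, and Tex19.2 higher (3.76-fold, adjusted p = 0.0436) and Gtsf1 lower in the GFP IP. At the other end of the list, Ddx25, an RNA helicase of spermatids, fell by 1.07 in the V5 IP (adjusted p = 0.0219) and by 1.20 in the GFP IP (adjusted p = 0.0121). Henmt1, the methyltransferase of piRNA ends, lay 1.26 (adjusted p = 0.0273) and 1.50 (adjusted p = 0.0136) lower, with 1 of 2 arrays well above background in each IP and in input. Only the mock IP, where Henmt1 was highest, brought its probe past the filter, so these calls are no support for a fall. Nanos3, an RNA-binding protein needed for survival of primordial germ cells, fell by 0.85 (adjusted p = 0.0340) and by 0.84 (adjusted p = 0.0292). The V5 calls of Ddx25 and Henmt1 ended without input 1, input 2, mock 1 or V5 1, and that of Nanos3 when any array other than mock 2 was left out. The GFP calls of Ddx25 and Henmt1 ended without GFP 1, that of Henmt1 also without mock 1, and that of Nanos3 without input 1, input 2, mock 1, GFP 1 or GFP 2. The number that fell was 0 in both IPs with normexp, 0 in the V5 IP without input 1, input 2, mock 1 or V5 1, and 0 in the GFP IP without GFP 1. It was 1 in the GFP IP without mock 1, and 2 in the V5 IP without GFP 1, GFP 2 or V5 2 and in the GFP IP without input 1, input 2 or GFP 2. It was 2 in each IP when arrays were centred on tested genes, and 1 (V5) and 2 (GFP) from the authors' deposited table or when dim probes were kept. Fitting only the arrays of the compared groups gave 0 (V5) and 2 (GFP). The number that rose in the GFP IP was 3 without mock 1 or without GFP 1.

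The P-body and small RNA machinery list, which holds cytoplasmic RNA decay and microRNA factors of all cell types, had all 26 genes tested. In the V5 IP over the mock IP 7 rose and 1 fell, where 14.6% of all genes rose and 21.4% fell, and in the GFP IP 7 rose and 2 fell, with 16.3% and 26.5% of all genes. The slide block gave 10 and 6 in the V5 IP (19.4% and 38.4% of all genes) and 10 and 7 in the GFP IP (20.9% and 40.2%). The median difference was 0.24 in the V5 IP and 0.46 in the GFP IP. Tnrc6a, the argonaute partner GW182, rose 3.52-fold in the V5 IP (adjusted p = 0.00337) and 3.49-fold in the GFP IP (adjusted p = 0.00296). Lsm14b, an RNA-binding protein of P-bodies, rose 4.05-fold and 4.34-fold, and Dcp1a, a decapping cofactor, 3.84-fold and 4.16-fold. Xpo5, the export factor of microRNA precursors, fell by 0.85 in the V5 IP (adjusted p = 0.0417) and by 0.79 in the GFP IP (adjusted p = 0.0446), and each call held in 4 of 16 alternatives and ended when any array other than mock 2 was left out. Edc4, a decapping scaffold, lay at -0.65 ± 0.23 (adjusted p = 0.0610, 0.0251 with the slide block) and -0.59 ± 0.23 (adjusted p = 0.0727, 0.0323 with the block). Tarbp2, a partner of Dicer, lay at -1.03 ± 0.38 in the V5 IP (adjusted p = 0.0639, 0.0228 with the block) and fell by 1.17 in the GFP IP (adjusted p = 0.0390), a call that ended without mock 1, GFP 1 or GFP 2. The number that rose in the V5 IP was 4 without mock 1 and 3 without V5 1, and that in the GFP IP was 11 without mock 2 and 3 without GFP 1.

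**Figure D4:**
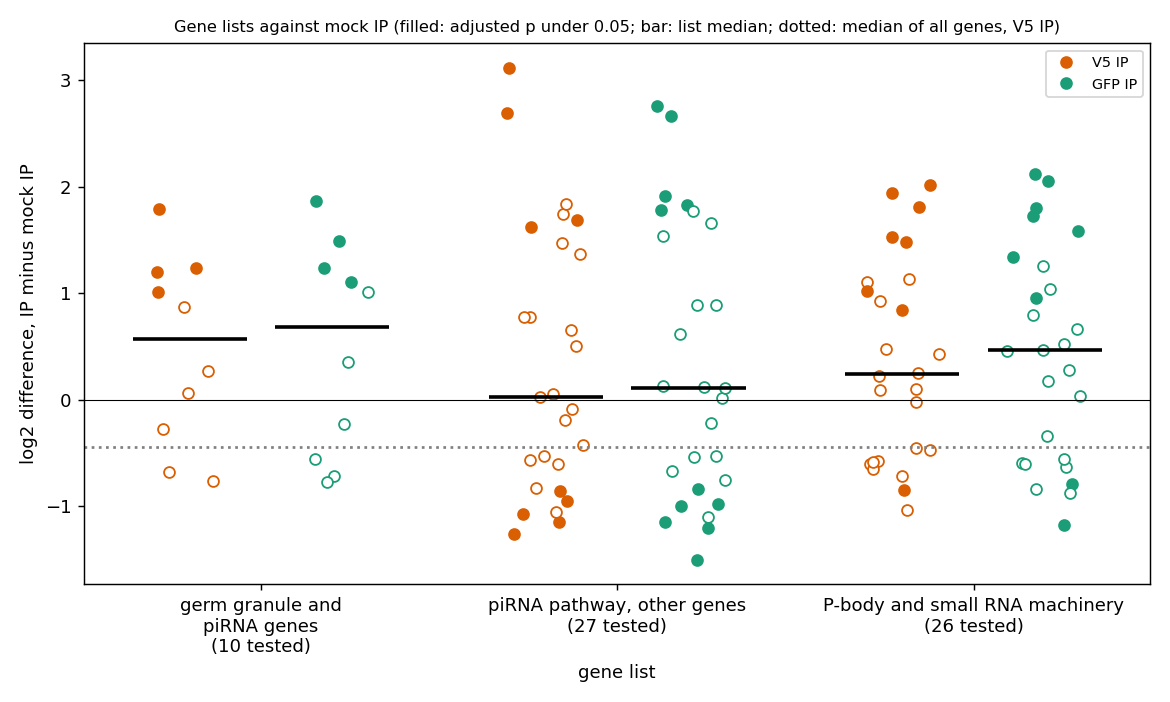
Log2 difference from the mock IP (y axis) of the 10 genes, 27 other piRNA pathway genes and 26 P-body and small RNA machinery genes in the V5 IP and the GFP IP. Filled points passed an adjusted p of 0.05, bars are list medians (0.57 and 0.69, 0.026 and 0.11, 0.24 and 0.46 in the V5 IP and the GFP IP) and the dotted line is the median of all genes in the V5 IP, -0.44. Each list held genes above and below the mock IP.

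The 10 genes did not share a single profile over the 8 arrays. Each gene was centred on its own mean, and the mean of the 10 centred profiles was compared with each gene by Pearson's r over the 8 arrays, as a description. The value ranged from -0.87 for Tdrd7 and -0.38 for Mov10l1 to 0.89 for Piwil2 and 0.98 for Tdrd1. Each of the 10 genes is part of that mean, which raises its own value, so these values do not compare with those of other genes. Tdrd6, whose probe was not well above background on some arrays, entered that mean with the same weight as the other genes. How far Tdrd6 moved the values was not tested. The 8 arrays share their groups and slides, so that any gene that differs between the IPs and the controls takes part in this measure. Among genes outside the 10, the most alike were Ptprm (0.98), a receptor tyrosine phosphatase, Fkbp6 (0.97), a cochaperone of the piRNA pathway, Anks1b (0.97), Rln1 (0.97) and Nemp1 (0.97), and 1.38% of tested genes had a value over 0.9. Fkbp6 itself lay 1.37 ± 0.58 above the mock IP in the V5 IP (adjusted p = 0.0938, 0.00687 with the slide block) and 1.53 ± 0.58 above it in the GFP IP (adjusted p = 0.0636, 0.00349 with the block), so that both passed with the block.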

How the data were processed

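Each array's deposited values were linear spot intensities read with Agilent Feature Extraction 9.1.3.1, per the file headers, which had already subtracted background and removed spatial trends from the processed intensity column. The authors also deposited a series table of background-subtracted signal normalized to the array median, per the file headers. Its deposited quality score served to match entries to spots: 44985 of 45018 entries matched 1 spot within a tolerance of 1e-05, and the deposited signal over the array's background-subtracted signal divided by its median had a ratio of 1. The columns of per-sample values left without a sample numbered 0. As an alternative, log2 of that signal with 0.1 added was used.

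Each processed intensity was put on the log2 scale and set against its own array's 75th percentile, taken over gene probes. Probes flagged well above background in both replicates of any group were kept (28104 of 41174). The kept probe with the highest mean stood for its gene (19032 genes). Probes were named with RefSeq's table of genes (GRCm38.p6): 22951 probes through their accession, 6659 with a current symbol, 3096 through a synonym and 8468 under the name in the file. The tests were two-sided and used lmFit and eBayes of limma 3.58.1 under R 4.3.3. All 8 arrays entered 1 fit and share its spread, so that every array enters every p. The Benjamini-Hochberg adjustment ran over all tested genes, and adjusted p under 0.05 made a call. The script was checked on simulated data. A fold written "at least" divides the mean of the brighter group by that of the dim group, taking for each dim array the higher of the dim probe's own signal and the array's detection floor (its dimmest probe still well above background). Precision is limited by having 2 arrays a group.

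Replicate numbers equal slides. Deviations from the group means of same-numbered arrays correlated at 0.30 to 0.78 for every pair of groups, so that the numbers pair the arrays, and the slide block is given beside the results of named genes whose call it changes.

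The 10 genes, the gene lists and the markers were chosen with earlier results of these data known. The rule for named genes took all 10 genes with every probe, the 3 highest and the 3 lowest moderated statistics of each list in the V5 IP against the mock IP, the 5 genes most alike in profile, and Dazl. Of the 32 other piRNA genes, Btbd18, Spocd1, Pnldc1, Nanos2 and Tdrd10 were not tested. Alternatives were normexp (offset 50), quantile normalization, centring on the median of tested genes, no filter on dim probes, the deposited table, the slide as a block, only the groups compared, the mean of all kept probes, and leaving out each array.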

Additional observations from a re-analysis of the deposited data

How the results depend on the processing

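The number of the 10 genes called was recomputed under 16 alternatives for each comparison. With normexp it was 0 in the V5 IP and 0 in the GFP IP against the mock IP, 1 in each IP against input and 0 in the mock IP against input. With the replicate block (slide), it was 7 in each IP against the mock IP, 5 in the V5 IP and 6 in the GFP IP against input, and 3 in the mock IP against input. With no filter on dim probes it was 1 in the V5 IP against the mock IP, 1 in the V5 IP against input and 0 in the mock IP against input. With only the groups compared it was 1 in the V5 IP against the mock IP and 0 in the mock IP against input. Leaving out each array gave 0 to 4 in the V5 IP and 0 to 5 in the GFP IP against the mock IP, 1 to 2 in the V5 IP and 1 to 4 in the GFP IP against input, and 0 to 1 in the mock IP against input. The V5 IP against the GFP IP gave 0 throughout. Against the mock IP, the other piRNA genes called higher numbered 0 (V5) and 1 (GFP) with normexp and 10 and 10 with the replicate block, and for GFP 8 with quantile normalization, the deposited table or only the groups compared. Leaving out arrays gave 3 to 6 (V5) and 3 to 7 (GFP). The P-body genes numbered 3 (V5) and 4 (GFP) with normexp, and 3 to 10 and 3 to 11 when arrays were left out.

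Some differences that had not passed changed sign. Those of Tdrd6 include arrays on which its probe was not well above background, so they are not read as effects. With normexp, Tdrd6 was at -0.37 in the V5 IP and 0.20 in the GFP IP against the mock IP, and at -0.66, -0.080 and -0.28 in the V5 IP, the GFP IP and the mock IP against input. Tdrd9 was at -0.22 in the V5 IP against the mock IP, and Tdrd7 at 0.042 in the mock IP against input. In the GFP IP against input Tdrd9 was at 0.070 with quantile normalization and 0.040 with the deposited table. Leaving out arrays moved Tdrd6 between -0.70 and 0.83 in the V5 IP and between -1.46 and 0.34 in the GFP IP against the mock IP, and between -0.30 and 1.51 in the GFP IP against input. It moved Tdrd7 between -0.60 and 0.050 in the V5 IP and between -0.56 and 0.10 in the GFP IP against the mock IP, and between -0.35 and 0.12 in the mock IP against input. It moved Tdrd9 between -0.51 and 0.13 in the V5 IP and between -0.44 and 0.22 in the GFP IP against input. In the mock IP against input it moved Mov10l1 between -0.41 and 0.27 and Piwil2 between -0.33 and 0.14. The causes were not tested.

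The median of all genes in the V5 IP against the mock IP was -0.44, and -0.34 with quantile normalization, -0.29 with centring on the tested genes and -0.23 with the deposited table. Among all genes, 2833 were then higher and 1557 lower with that centring and 3057 and 1520 with the deposited table, against 2776 and 4066. With 2 arrays a group, and Tdrd6 near background, small differences were not detectable here.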
